A study of Mus musculus with 6 samples.

Results

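Hepcidin and the genes that take up, carry, store and release iron were followed in the livers of 6 male mice. They are 10 genes chosen by symbol (Hamp, Hamp2, Tfrc, Tfr2, Slc40a1, Fth1, Ftl1, Bmp6, Id1 and Trf) out of 52459 in the deposited table, and all 10 passed the filter on low counts, which left 17032 genes. Hamp2 was put on the list because its rise in these livers had been seen. Its values are therefore given as a description, with no test. The other 9 were listed for their place in iron handling, with earlier results of these livers known, and are read beside the shares of all genes.

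All 6 animals were 8-month-old C57BL6J mice of the Alb-Cre/Cas9 F1 generation, in which Cre under the albumin promoter turns on the Cas9 nuclease in hepatocytes. At 4 to 5 weeks of age, 3 of them received the vector AAV8-U6-sgCtrl, which carries a control guide RNA (livers 5.1, 7.1 and 7.2), and 3 received AAV8-U6-sgPrdx2, which carries a guide RNA against the peroxide-reducing enzyme peroxiredoxin 2 (livers 1.1, 1.3 and 3.2). Both groups were given 100 mg/kg of DEN (diethylnitrosamine, which causes liver tumours) 3 weeks after the vector and, from 1 week later, a choline-deficient high-fat diet (CDA-HFD) for 6 months. No liver without DEN and the diet is compared here. The guide acts in hepatocytes alone, and islands of cells that still held the protein, thought not to have been reached by the vector, remained in the livers. RNA came from whole liver, so that fewer cells of a type and less RNA per cell cannot be told apart.

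Total counts were between 37462102 and 56865293 per liver, and 3 counts corresponded to 0.0555 to 0.0921 normalized CPM (counts scaled to a common library size after TMM normalization). The targeted gene Prdx2 was at 109, 117 and 132 CPM in the sgCtrl livers and at 99.0, 112 and 149 CPM in the livers labelled sgPrdx2. These ranges overlapped (log2 fold change 0.01, SE 0.18, edgeR adjusted p = 0.983). A cut by Cas9 can leave the RNA in place, so the Prdx2 RNA does not check the labels, and sgPrdx2 below means the livers so labelled. Over all genes, the edgeR quasi-likelihood test called 305 higher and 262 lower in sgPrdx2 at an adjusted p under 0.05, and with scaling by total counts alone 206 higher and 3041 lower. The 10 hepatocyte markers summed to 81426 to 89691 CPM in sgCtrl and to 141455 to 187000 CPM in sgPrdx2 livers, and 5 of the 10 were called higher. Hepatocyte RNA thus took a larger share of the sgPrdx2 libraries.

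Hepcidin is the peptide hormone by which the liver holds iron in the body in check. Hepatocytes secrete it, and it binds ferroportin (Slc40a1), the only known exporter of cellular iron, and has it degraded, so less iron enters the blood from gut, macrophages and liver. Its gene Hamp is driven by bone morphogenetic proteins such as BMP6 from the liver's endothelial cells, through SMAD proteins and the co-receptors hemojuvelin, HFE and transferrin receptor 2, and in inflammation by IL-6 through STAT3. Mice carry a second copy, Hamp2, whose product did not lower body iron when it was overexpressed in transgenic mice, unlike that of Hamp.

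The hepcidin genes lie side by side on the minus strand of chromosome 7 (build GRCm38), Hamp at chr7:30942368-30944032 and Hamp2 at chr7:30922372-30924681, with 17686 bases between them. Each has 3 exons. Their coding sequences shared 233 of 252 aligned bases (92.5%), and their promoter windows, 250 bases before to 50 bases after the RefSeq gene start, shared 276 of 303 aligned positions (91.1%). The 2 windows are shown because they carry letters known from the BMP and STAT3 responses of hepcidin and differ within the first of these. They span chr7:30943980-30944279 for Hamp and chr7:30924132-30924431 for Hamp2 (RefSeq, GRCm38.p6), and are written on the minus strand, 5′ to 3′. The first run of capitals is the BMP-responsive core GGCGCC or the bases aligned with it, and the second is a STAT-type motif TTCNNNGAA.
Hamp promoter: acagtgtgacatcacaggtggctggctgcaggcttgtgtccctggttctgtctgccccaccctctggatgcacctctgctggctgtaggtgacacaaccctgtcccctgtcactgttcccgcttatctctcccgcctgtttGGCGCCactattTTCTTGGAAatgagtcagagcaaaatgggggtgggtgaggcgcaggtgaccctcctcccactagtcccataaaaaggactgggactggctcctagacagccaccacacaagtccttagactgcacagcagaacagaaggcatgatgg
Hamp2 promoter: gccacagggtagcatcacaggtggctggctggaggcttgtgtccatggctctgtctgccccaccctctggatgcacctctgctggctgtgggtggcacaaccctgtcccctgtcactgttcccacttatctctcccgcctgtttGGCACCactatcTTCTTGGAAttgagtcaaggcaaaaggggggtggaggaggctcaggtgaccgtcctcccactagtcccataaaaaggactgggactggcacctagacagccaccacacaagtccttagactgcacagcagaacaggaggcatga

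The Hamp window held GGCGCC at position -109 from the RefSeq gene start. The aligned bases of Hamp2, from position -106, read GGCACC, and differed by G145A, counted from 1 at the 5′ end of the Hamp window. The motif TTCNNNGAA stood at -97 in Hamp and at -94 in Hamp2, with the same letters. Both motifs read the same on either strand. Of 32851 mouse promoter windows of this length, 11.9% held GGCGCC and 8.30% held TTCNNNGAA, so either match alone is common. RefSeq gave a window for 7 of the 10 genes, and among these GGCGCC was found in Hamp and Tfrc and TTCNNNGAA in Hamp and Hamp2. Such matches describe the letters and not the binding of a factor.

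A second kind of sequence joins 4 of the genes. The iron responsive element is an RNA hairpin bound by the iron regulatory proteins when iron is short, which stabilizes the message where the hairpin lies in the 3′ UTR and blocks its translation where it lies in the 5′ UTR. The search asked for an unpaired C, 5 bases, the loop CAGTG with a sixth base other than G, and 5 bases pairing with the first 5. It found 4 in Tfrc (the first at chr16:32631219-32631248, the others at chr16:32631598-32631627, chr16:32631663-32631692 and chr16:32631710-32631739) and 1 each in Slc40a1 (chr1:45925464-45925493), Fth1 (chr19:9982732-9982761) and Ftl1 (chr7:45459778-45459807). They are shown in this order (GENCODE transcripts, GRCm38, written on the strand of the gene, loop in capitals), since these are the members whose RNA or protein follows iron through this element.
Tfrc 3′ UTR: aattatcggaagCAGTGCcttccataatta
Tfrc 3′ UTR: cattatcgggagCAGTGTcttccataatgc
Tfrc 3′ UTR: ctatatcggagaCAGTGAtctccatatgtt
Tfrc 3′ UTR: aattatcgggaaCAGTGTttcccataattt
Slc40a1 5′ UTR: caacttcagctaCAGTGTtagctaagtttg
Fth1 5′ UTR: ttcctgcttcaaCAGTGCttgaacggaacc
Ftl1 5′ UTR: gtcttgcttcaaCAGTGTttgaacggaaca
Of 22500 coding genes, 16 held such an element in the 5′ UTR (0.0711%) and 84 in the 3′ UTR (0.373%).

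Hamp2 was higher in every sgPrdx2 liver than in any sgCtrl liver. It was at 2.28, 4.03 and 4.26 CPM in sgCtrl livers 5.1, 7.1 and 7.2 and at 32.2, 23.7 and 16.9 CPM in sgPrdx2 livers 1.1, 1.3 and 3.2, from 100, 181 and 224 counts and from 1415, 1280 and 550 counts. The means were 3.52 ± 1.08 and 24.3 ± 7.69 CPM (SD, n = 3 each), a log2 fold change of 2.78 (SE 0.31). By increase it ranked 3 among the 17032 genes tested and 2 among the 14123 whose mean over the livers reached 1 CPM. As Hamp2 was listed for this rise, the ranks follow from that choice and support nothing further. Liver 5.1 was the lowest of its group for both hepcidin genes.

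Hamp itself was at 205, 371 and 374 CPM in sgCtrl livers 5.1, 7.1 and 7.2 and at 557, 692 and 877 CPM in sgPrdx2 livers 1.1, 1.3 and 3.2. The groups did not overlap, and the means, 317 ± 96.7 and 709 ± 160 CPM (SD, n = 3 each), differed 2.24-fold (log2 1.16, SE 0.27). With an edgeR adjusted p of 0.0587 Hamp was not called. DESeq2 (adjusted p = 5.3e-04), which called 2066 of 14799 genes or 14.0%, and edgeR without the filter on low counts (adjusted p = 0.0167) called it. Leaving out 1 liver at a time left the log2 fold change between 0.93 and 1.31.

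The ratio of the hepcidin genes differed between livers. Hamp2 had 1.11, 1.09 and 1.14 counts per 100 counts of Hamp in the sgCtrl livers, and 5.79, 3.42 and 1.93 in sgPrdx2 livers 1.1, 1.3 and 3.2. The ratio was thus nearly the same in all sgCtrl livers and spread widely among the sgPrdx2 livers, where liver 3.2 had the most Hamp and the least Hamp2. Because both genes are counted in the same library, the ratio does not depend on scaling between livers. Reads can be split between such similar genes: 16.6% of the 50-base stretches of the Hamp transcript also occur in Hamp2, and 26.8% of those of Hamp2 occur elsewhere, in Hamp or in Gm44662, an antisense gene that overlaps Hamp2 and had 0 counts in every liver. How reads matching more than 1 place were counted is not given in the sources used here, and its part in the ratio was not tested.

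**Figure D1:**
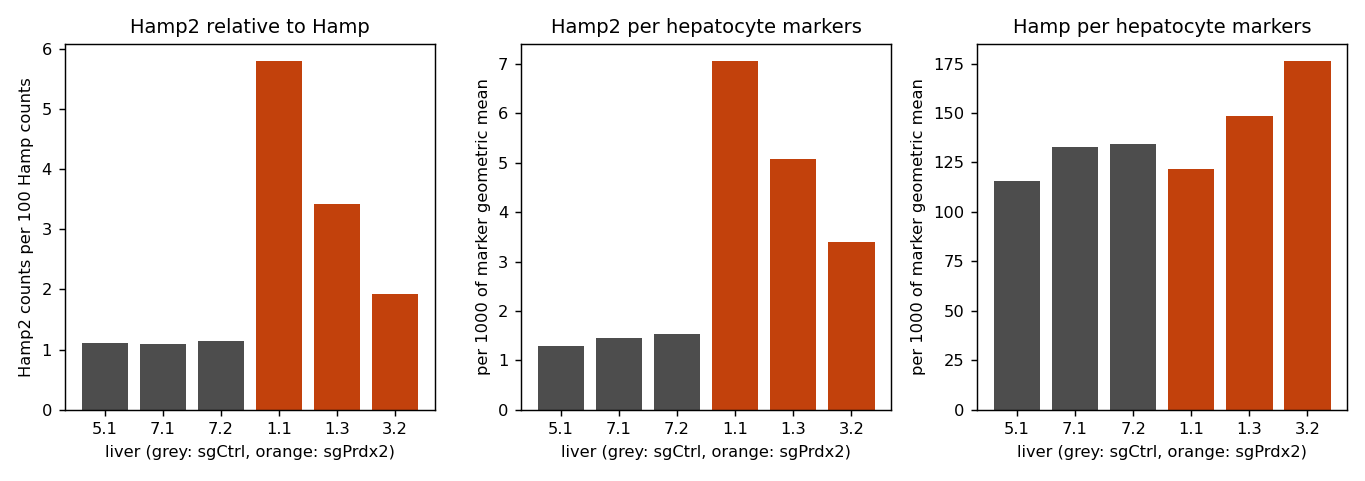
Bars give, for each of the 6 livers (sgCtrl grey, sgPrdx2 orange), Hamp2 counts per 100 Hamp counts on the left, and on the middle and right the normalized level of Hamp2 and of Hamp per 1000 of the geometric mean of the 10 hepatocyte markers. Hamp2 stood higher in all 3 sgPrdx2 livers in the first 2 panels, by different amounts (5.79, 3.42 and 1.93 per 100 Hamp counts), while in the Hamp panel the groups overlap (116 to 134 in sgCtrl, 122 to 176 in sgPrdx2).

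Hepcidin is made by hepatocytes, and the hepatocyte markers were 1.97-fold higher in sgPrdx2 livers (ratio of mean sums). Per 1000 of the geometric mean of those markers in the same liver, Hamp was at 116, 133 and 134 in sgCtrl and at 122, 148 and 176 in sgPrdx2 livers, so the groups overlapped, with a ratio of means of 1.16. Hamp2 on this scale was at 1.29, 1.45 and 1.53 in sgCtrl and at 7.05, 5.07 and 3.39 in sgPrdx2 livers, a ratio of 3.64 without overlap. Hamp2 was listed for its rise and this scale was chosen after seeing the data, so these values are a description with no test.

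**Figure D2:**
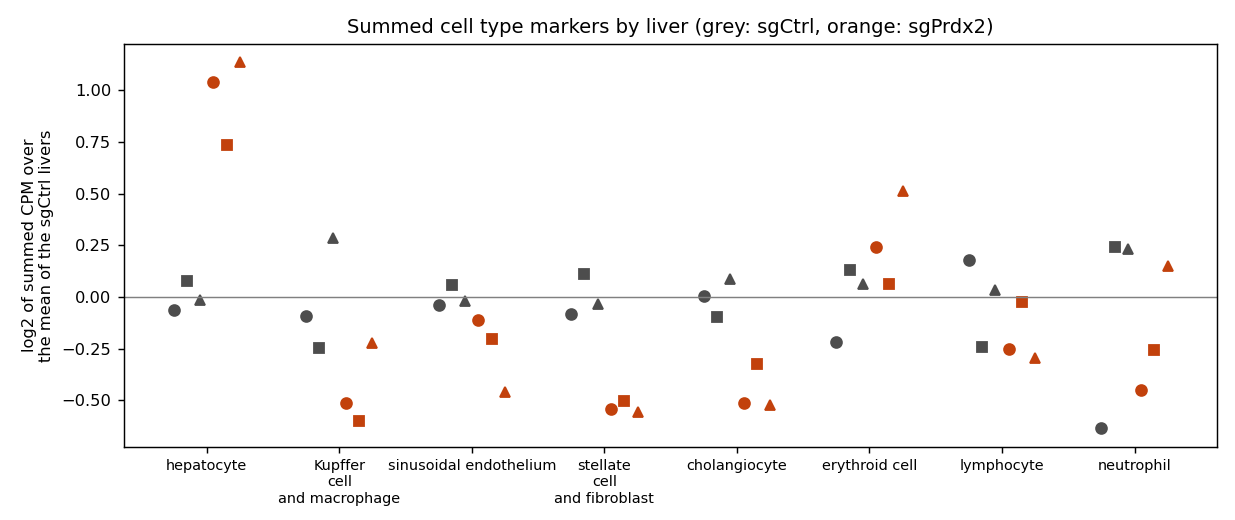
Each point is the summed normalized CPM of the markers of a cell type in 1 liver, as log2 over the mean of the 3 sgCtrl livers (grey, sgCtrl; orange, sgPrdx2). The hepatocyte sums are higher in all 3 sgPrdx2 livers, the sums for sinusoidal endothelium, stellate cells and cholangiocytes are lower, and those for macrophages, erythroid cells, lymphocytes and neutrophils overlap.

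The iron-sensing receptor on hepatocytes was the 1 member that passed the test. Tfr2, transferrin receptor 2, binds iron-loaded transferrin and feeds into hepcidin control. It stood at 151, 208 and 171 CPM in sgCtrl and at 348, 294 and 330 CPM in sgPrdx2 livers and rose 1.83-fold (177 ± 28.9 to 324 ± 27.6 CPM, SD, n = 3 each; log2 0.87, SE 0.16, edgeR adjusted p = 0.0409). Of the 9 members other than Hamp2 it was the 1 called, where 3.33% of all genes tested were called. The call was lost when sgCtrl 5.1 (adjusted p = 0.124), sgCtrl 7.2 (adjusted p = 0.161), sgPrdx2 1.1 (adjusted p = 0.150) or sgPrdx2 1.3 (adjusted p = 0.0785) was left out of the edgeR fit, with a log2 fold change of 0.77 to 0.96 in these fits. Per 1000 of the hepatocyte marker mean Tfr2 was at 85.4, 74.8 and 61.4 in sgCtrl and at 76.1, 63.0 and 66.3 in sgPrdx2 livers, and the groups overlapped (ratio of means 0.926).

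Trf encodes transferrin, the protein that carries iron in plasma and that hepatocytes secrete. It was at 1311, 1460 and 1279 CPM in sgCtrl and at 2231, 2014 and 3577 CPM in sgPrdx2 livers, with no overlap and with liver 3.2 well above the other two. The difference of 1.93-fold (log2 0.95, SE 0.24) was not called (edgeR adjusted p = 0.0668), although DESeq2 called it (adjusted p = 0.00126). Per 1000 of the hepatocyte marker mean, the ratio of means was 0.951 and the groups overlapped. Of its 50-base stretches, 79.8% also occur in Gm20425, a gene model on the same strand that had 0 counts.

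The receptor that imports iron was not called, and its groups overlapped. Tfrc, transferrin receptor 1, was at 23.6, 17.9 and 20.1 CPM in sgCtrl and at 17.5, 15.7 and 19.2 CPM in sgPrdx2 livers (log2 fold change -0.23, SE 0.15, edgeR adjusted p = 0.357). It was called lower with total counts (log2 fold change -0.61, edgeR adjusted p = 0.0347) and scaled to the hepatocyte markers (-1.28, edgeR adjusted p = 4.0e-04). On these scales 3041 and 12474 of all 17032 genes tested were called lower, with medians of -0.39 and -1.03, so these calls do not set Tfrc apart. The Tfrc RNA is the one with the 4 hairpins shown above. Relative to Tfr2 in the same liver, Tfrc counts were 15.5, 8.60 and 11.8 per 100 in sgCtrl and 5.03, 5.34 and 5.83 per 100 in sgPrdx2 livers. This log2 difference of -1.11 in a ratio within each library had an exact two-sided permutation p of 0.1, the smallest that 3 against 3 livers can give. Tfr2 alone had a log2 fold change of 0.87, and per hepatocyte marker mean its groups overlapped (ratio of means 0.926). The part of the cell mix in the ratio of Tfrc to Tfr2 was not tested.

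Iron export and storage genes overlapped between the groups. Slc40a1, ferroportin, was at 158, 166 and 177 CPM in sgCtrl and at 167, 162 and 114 CPM in sgPrdx2 livers (log2 fold change -0.18, SE 0.17, edgeR adjusted p = 0.554), with liver 3.2 below all others. Without sgPrdx2 3.2 its log2 fold change was -0.01.

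Fth1, the ferritin heavy chain, which oxidizes iron for storage, was at 3343, 2328 and 2761 CPM in sgCtrl and at 2239, 2276 and 3966 CPM in sgPrdx2 livers (log2 fold change 0.01, SE 0.26, edgeR adjusted p = 0.989). Ftl1, the light chain of the same shell, was at 2011, 1728 and 2167 CPM in sgCtrl and at 1897, 1791 and 2542 CPM in sgPrdx2 livers (log2 fold change 0.08, SE 0.19, edgeR adjusted p = 0.822). For both chains liver 3.2 was the highest of all 6. The log2 ratio of Ftl1 to Fth1 differed by 0.10 between the groups (exact two-sided permutation p = 0.5). Reads of Ftl1 may be shared with copies, since 90.6% of its 50-base stretches occur in 17 other genes, most of them ferritin pseudogenes or overlapping gene models.

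The BMP signal upstream of hepcidin and its target gene Id1 overlapped between the groups as well. Bmp6, the main iron-dependent activator of hepcidin, was at 7.97, 8.50 and 7.97 CPM in sgCtrl and at 9.11, 9.37 and 6.57 CPM in sgPrdx2 livers (log2 fold change 0.04, SE 0.17, edgeR adjusted p = 0.903). Id1, a target gene of BMP and SMAD signalling that often moves with Hamp, was at 38.9, 27.6 and 36.1 CPM in sgCtrl and at 22.9, 28.6 and 42.6 CPM in sgPrdx2 livers (log2 fold change -0.13, SE 0.24, edgeR adjusted p = 0.766). Neither separated the groups. Bmp6 overlaps Txndc5 on the opposite strand (5.74% of its exonic bases), and the strand setting of the counts is not given in the sources used here. Bmp6 comes mostly from endothelial cells, whose 10 markers summed to 484 to 518 CPM in sgCtrl and to 362 to 461 CPM in sgPrdx2 livers, and the part of this difference in the Bmp6 values was not tested. Of the 9 members other than Hamp2, 3 were higher in every sgPrdx2 liver than in any sgCtrl liver (Hamp, Tfr2 and Trf), where 16.7% of all genes tested were, and 0 were lower, where 17.5% were (34.2% in either direction).

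**Figure D3:**
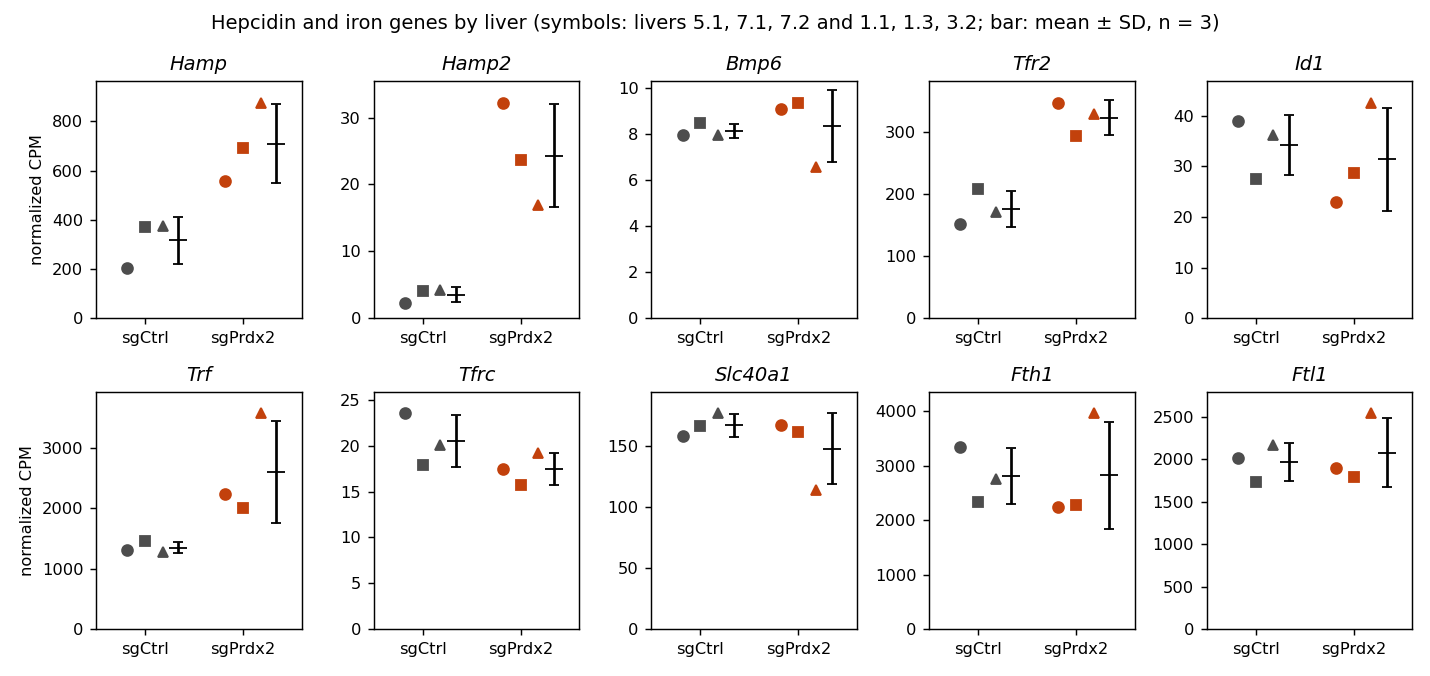
Each panel shows normalized CPM of 1 gene in the 3 sgCtrl (grey) and 3 sgPrdx2 livers (orange), with the mean ± SD (n = 3) beside the points and axes from 0. Hamp, Hamp2, Tfr2 and Trf do not overlap between the groups, and the other 6 genes do, with liver 3.2 (orange triangle) the highest for Fth1, Ftl1 and Id1 and the lowest for Slc40a1 and Bmp6.

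Per kilobase of transcript, the scale on which genes can be set beside each other, the sgCtrl livers ordered the genes as follows. Fth1 came first (3026 ± 548 CPM per kb, SD, n = 3), then Ftl1 (2034 ± 229.7), Hamp (772 ± 236) and Trf (525 ± 37.6). Tfr2 (57.6 ± 9.42), Slc40a1 (49.5 ± 2.83) and Id1 (36.6 ± 6.31) were lower, and Hamp2 (8.06 ± 2.47), Tfrc (4.20 ± 0.580) and Bmp6 (2.27 ± 0.0841) were the lowest. Among neighbours in this order, Hamp and Trf overlapped over the 3 livers, as did Tfr2 and Slc40a1. In sgPrdx2 livers Hamp2 (55.5 ± 17.6 CPM per kb) stood above Slc40a1 (43.8 ± 8.67) and Id1 (33.6 ± 10.8) in its mean, with overlapping livers, and Hamp (1728 ± 391) overlapped both Ftl1 (2145 ± 420) and Trf (1014 ± 329). The places of Ftl1, Trf, Hamp and Hamp2 may depend on how reads shared with other genes were counted, which is not given.

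Other genes of iron handling were read from lists written for this purpose, which held 98 genes of the table besides Hamp2. Of these 90 were tested, and 2 were called higher (Tfr2 and Fdx1) and 1 lower (Hmox1). Over all genes tested 1.79% were called higher and 1.54% lower. The median log2 fold change was 0.09 over the 90 genes and -0.02 over all genes tested. Groups did not overlap for 25 genes that were higher and 12 that were lower in sgPrdx2, beside 16.7% and 17.5% of all genes tested.

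In the BMP arm of hepcidin control, Tfr2 was the 1 gene called. Of the 6 BMP ligands, 0 were called by edgeR or DESeq2 and 0 had an unadjusted edgeR p under 0.05 (median log2 fold change -0.10). Bmp7 had a log2 fold change of -0.49 (SE 0.22, edgeR adjusted p = 0.223), and Bmp5 and Bmp2, the latter made by sinusoidal endothelium, were at -0.41 and -0.24. Among the 9 receptors and co-receptors tested, Hfe2, the symbol here for hemojuvelin, had a log2 fold change of 0.36 (SE 0.16) and Acvr2b of 0.61 (SE 0.27), both without a call (edgeR adjusted p = 0.223 and 0.207). Of the 10 SMADs and BMP target genes, 0 were called by either tool and 0 had an unadjusted edgeR p under 0.05 (median log2 fold change -0.05). They included Smad4 at -0.31 and Atoh8 at 0.30.

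A pair of hepcidin inhibitors made by hepatocytes had higher values in every sgPrdx2 liver. Tmprss6, matriptase-2, which cleaves hemojuvelin, was at 253, 362 and 281 CPM in sgCtrl and at 541, 430 and 481 CPM in sgPrdx2 livers (log2 fold change 0.70, SE 0.18, edgeR adjusted p = 0.0721). Fgl1, a secreted BMP antagonist of the liver, had a log2 fold change of 0.51 (SE 0.14, edgeR adjusted p = 0.0878). In both cases the groups did not overlap, as for 16.7% of all genes tested in this direction. Neither gene was called by edgeR, and DESeq2, which called 14.0% of its genes, called both. Fkbp1a, the only other gene tested of this list, was at -0.16. Per 1000 of the hepatocyte marker mean Tmprss6 overlapped between the groups (ratio of means 0.822). Erfe, the erythroid hormone that suppresses hepcidin, was under 0.2 CPM in all livers and was not tested.

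Of the 6 genes tested of the IL-6 and STAT3 list, 0 were called by edgeR or DESeq2, with 2 at an unadjusted edgeR p under 0.05 (median log2 fold change -0.20). Of all 17032 genes tested, 4241 had such a p. Il6st, the signalling receptor chain, was at -0.43 and Jak2 at -0.32, whereas Socs3, a STAT3 target gene that feeds back on the pathway, was at 22.0, 38.4 and 31.5 CPM in sgCtrl and at 38.5, 71.3 and 40.9 CPM in sgPrdx2 livers (log2 fold change 0.71, SE 0.28, edgeR adjusted p = 0.172). The cytokine Il6 was at 0.111 to 0.152 CPM in sgCtrl and at 0.0185 to 0.0456 CPM in sgPrdx2 livers, at most a few counts per library in the latter, and was not tested.

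Among the 11 uptake genes tested, 0 were called by edgeR, 3 had an unadjusted p under 0.05 and 2 were called by DESeq2. Over all genes tested, 4241 of 17032 had such an edgeR p, and DESeq2 called 14.0% of its genes. Slc11a2, the ferrous iron transporter DMT1, had a log2 fold change of -0.40 (SE 0.13, edgeR adjusted p = 0.110). Lcn2, lipocalin 2, which binds iron-carrying siderophores and is induced in inflammation, was at 637, 605 and 796 CPM in sgCtrl and at 326, 339 and 563 CPM in sgPrdx2 livers (log2 fold change -0.73, SE 0.24, edgeR adjusted p = 0.123). The plasma scavengers Hp (haptoglobin, for hemoglobin) and Hpx (hemopexin, for heme) had log2 fold changes of 0.47 and 0.57, and Lrp1, the receptor for the hemopexin complex, 0.26. Ncoa4, which delivers ferritin for degradation, was at -0.61 (SE 0.32) and Heph, hephaestin, at -0.54 (SE 0.18), both without a call. Aco1, iron regulatory protein 1, was at 0.36.

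Of 15 genes of mitochondrial iron and iron-sulfur clusters, 1 was called, and the sign of their differences depended on the scaling. As reported, 14 had a positive log2 fold change (median 0.32), beside 8230 of 17032 over all genes tested, and 9 had non-overlapping groups, higher in sgPrdx2, beside 16.7% of all genes tested. Scaled by total counts, 5 of the 15 were positive (median -0.06), beside 3198 of 17032 over all genes tested (median -0.39). Scaled to the hepatocyte markers, which were 1.97-fold higher in sgPrdx2 livers, 0 of the 15 were positive (median -0.71). Over all genes tested 504 of 17032 were positive on that scale (median -1.03). The list median stood 0.32 above that of all genes with either scaling, and 0.16 above it with the length and GC correction. Fdx1, a mitochondrial ferredoxin, was at 45.0, 49.9 and 47.4 CPM in sgCtrl and at 81.0, 78.2 and 103 CPM in sgPrdx2 livers and rose 1.84-fold (log2 0.88, SE 0.15, edgeR adjusted p = 0.0373). Its call was lost without sgCtrl 5.1 (edgeR adjusted p = 0.120), 7.1 (0.0531) or 7.2 (0.146), and without sgPrdx2 1.1 (0.143) or 1.3 (0.0730). Fdxr, its reductase (log2 fold change 0.76, SE 0.18), and Bola3, an assembly factor (0.57, SE 0.15), were not called.

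All 9 genes of heme synthesis had a positive log2 fold change, with a median of 0.48, although 0 were called by edgeR at its adjusted threshold and 4 were called by DESeq2, which called 14.0% of all its genes. Unadjusted edgeR p-values under 0.05 were found for 6 of the 9 and for 4241 of the 17032 genes tested. With total counts 7 of the 9 were positive (median 0.10), and with hepatocyte scaling 1 was. Over all genes tested 3198 and 504 of 17032 were positive on these scales. Alad, which makes porphobilinogen, was at 140, 142 and 115 CPM in sgCtrl and at 240, 190 and 314 CPM in sgPrdx2 livers (log2 fold change 0.90, SE 0.20, edgeR adjusted p = 0.0555). Urod was at 0.74 (SE 0.18) and Ppox at 0.48 (SE 0.12). Relative to the hepatocyte markers, the median log2 fold change of the heme synthesis list was -0.55, beside -1.03 over all genes. Such scaling moves all genes of a liver alike, so the gap between these medians repeats that of the main fit and is no separate result.

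Hmox1, heme oxygenase 1, which frees iron from heme and is abundant in macrophages, went the other way. It was at 125, 107 and 157 CPM in sgCtrl and at 62.7, 70.9 and 58.9 CPM in sgPrdx2 livers and fell 2.02-fold (log2 fold change -1.01, SE 0.17, edgeR adjusted p = 0.0386). The call was lost without sgCtrl 5.1 (edgeR adjusted p = 0.118) or 7.2 (0.143) and without sgPrdx2 1.1 (0.147) or 1.3 (0.0785). The 10 macrophage markers summed to 1424 to 2058 CPM in sgCtrl and to 1115 to 1446 CPM in sgPrdx2 livers. Of these markers edgeR called 0 (3 at an unadjusted p under 0.05) and DESeq2 called 2. Such an edgeR p was found for 4241 of all 17032 genes tested, and DESeq2 called 14.0% of its genes. The part of the macrophage markers in the Hmox1 values was not tested.

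**Figure D4:**
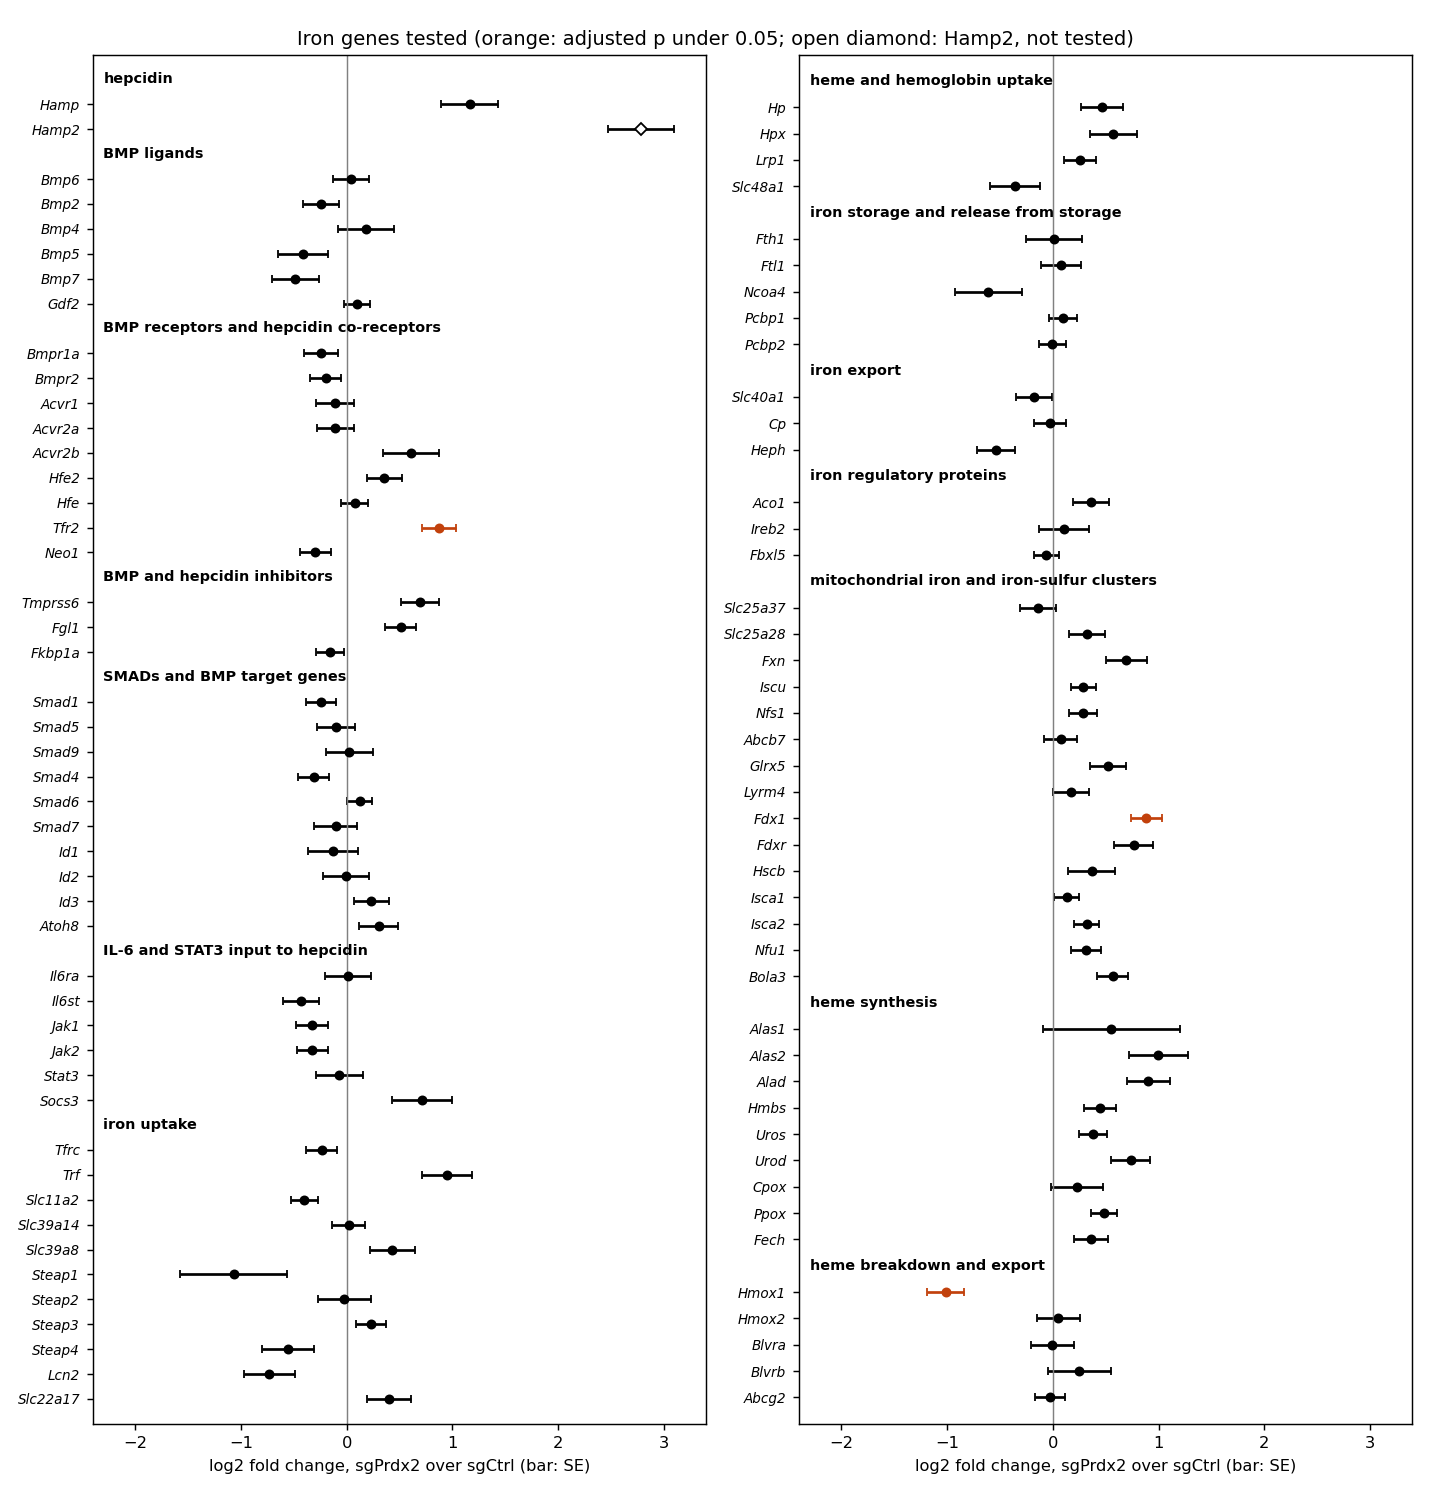
Points give the log2 fold change of each tested iron gene, sgPrdx2 over sgCtrl (3 livers each), with its SE, grouped by role. Tfr2, Fdx1 and Hmox1 (orange) had an edgeR adjusted p under 0.05. Of the lists for mitochondrial iron (15 genes) and heme synthesis (9 genes), Fdx1 alone was called. In these lists 14 and 9 of the points lie right of 0 as scaled here, against 5 and 7 with total counts and 0 and 1 scaled to the hepatocyte markers. Of all 17032 genes tested, 8230 were positive as scaled here, 3198 with total counts and 504 scaled to the hepatocyte markers.

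The differences were also read relative to hepatocyte RNA. When the counts of each liver were scaled to the geometric mean of the hepatocyte markers, a choice made after seeing the data, the median over all genes moved to -1.03. On that scale the log2 fold change of Hamp2 was 1.86, of Hamp 0.22, of Tfr2 -0.11, of Trf -0.07 and of Fth1 -1.07. The scaling moves all genes of a liver alike, so the place of a gene relative to that median carries over from the main fit. Per hepatocyte marker mean, Hamp, Tfr2 and Trf overlapped between the groups.

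**Figure D5:**
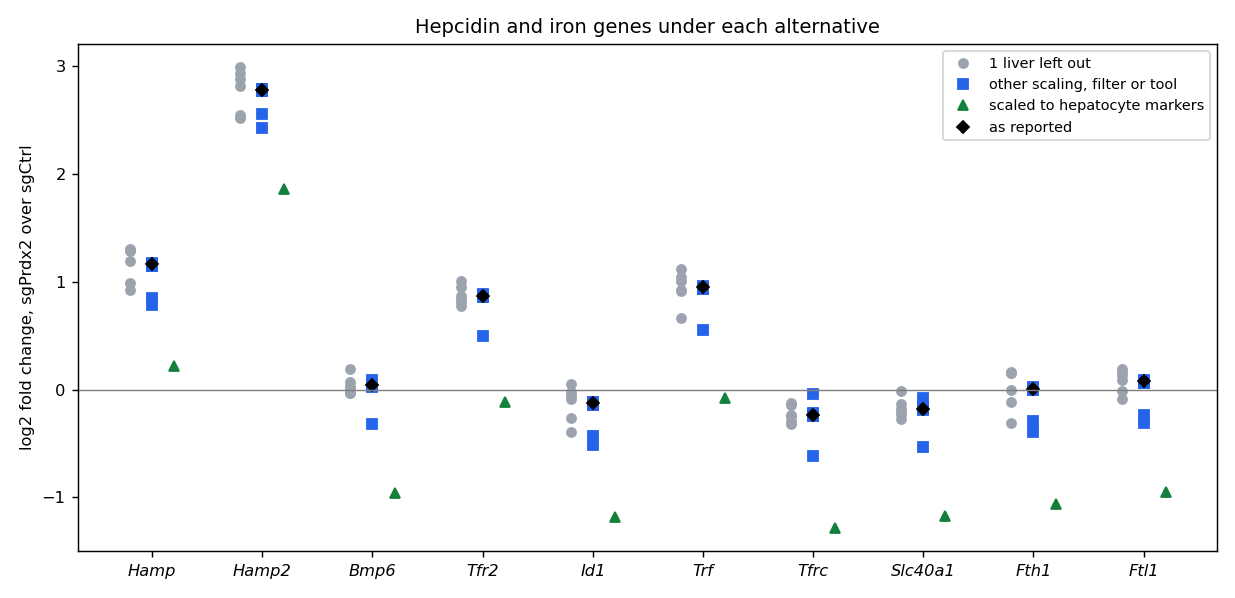
Points give the log2 fold change of each of the 10 genes as reported (diamond), with 1 liver left out (grey), with another scaling, filter or tool (blue) and scaled to the hepatocyte markers (green). Hamp2, listed for its rise, is at 1.86 or above in each. Hamp, Tfr2 and Trf lie near 0 on the hepatocyte scale (0.22, -0.11 and -0.07).

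Among the genes whose normalized log2 CPM followed Hamp2 most closely over the 6 livers were Iyd (Pearson r = 0.992), Mrpl18 (0.991), and Serpind1 and Tmem216 (both 0.989). For Hamp they were Zap70 (0.995), 2810414N06Rik and Gm3839 (both 0.991), Mrnip (0.989) and Scarb1 (0.988). Hamp and Hamp2 had r = 0.864 with each other, and their closest genes were not shared. These values describe 6 points that share the group difference and the scaling of their libraries. These genes near Hamp2 had much smaller log2 fold changes than Hamp2 itself, 0.26 to 0.74.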

How the data were processed

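RNA-Seq of 6 whole livers was analysed, 3 sgCtrl and 3 sgPrdx2, grouped by the guide RNA in the sample labels. The authors deposited counts of reads per gene and liver, as whole numbers without normalization. The submitters' processing notes name HISAT2, HTSeq, DESeq2 and GRCm38. The annotation, strand setting and treatment of reads matching several places are not given in the sources used here. A deposited table of the authors' own comparison (means, fold changes and p-values) was not used.

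Differences were tested with edgeR 4.0.16 under R 4.3.3 (filterByExpr, minimum count 10, TMM, quasi-likelihood test, no covariate, Benjamini-Hochberg adjusted p under 0.05 over 17032 genes). SE is the log2 fold change over the square root of F, and the biological coefficient of variation was 0.213. Depth was 37462102 to 56865293 counts per liver. Ratios within a library used two-sided exact permutation tests (SciPy 1.17.1).

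Alternatives were RLE, upper-quartile and total-count scaling, DESeq2 1.42.0, other filters, a stricter threshold, a transcript length and GC content correction (97.3% of tested genes), and leaving out each liver. Scaling to hepatocyte markers was added after seeing the data. On simulated data, with 200 of 17032 genes changed 4-fold, edgeR recovered 197 (98.5%) with 10 false calls among 207. Smaller changes, such as the 1.83-fold of Tfr2, were not simulated, so this share does not apply to them.

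Genes and lists were chosen with earlier results of these data known. Named are the 10 genes, in each list the called genes and up to 3 with the smallest p, marker sums, and the 5 genes closest to each hepcidin gene, apart from some that are not reported here. Alas1, Blvrb, Erfe, Il6 and Klf1 were named after their values were seen. Promoters are from RefSeq (GRCm38.p6), and transcripts, lengths and coordinates from GENCODE (GRCm38), whose release need not be that of the counts. In the replicate check no 2 livers of a group agreed within sampling noise.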

Additional observations from a re-analysis of the deposited data

How the results depend on the processing

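The differences rest on 3 livers per group, and leaving out any of 4 livers ended every call. Genes called ranged from 0 to 619 with 1 liver left out, members other than Hamp2 from 0 to 1 and iron list genes from 0 to 4. All were 0 by edgeR without sgCtrl 5.1 or 7.2 or sgPrdx2 1.1 or 1.3, where 3114 to 3993 genes had an unadjusted p under 0.05. The log2 difference of Ftl1 to Fth1 ranged from -0.019 to 0.21, below 0 without sgCtrl 5.1. No paired analysis was possible because the groups share no replicate numbers. Mouse numbers before the point (5 and 7 against 1 and 3) are split with the groups, so anything they mark cannot be told apart from the guide.

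Genes called were 567 as reported, 3247 with total counts, 2066 with DESeq2, 1128 without a filter, 1188 with the length and GC correction, 12532 scaled to hepatocyte markers and 0 at an adjusted p under 0.01. Members other than Hamp2 called were 1 as reported, 3 with DESeq2, 3 without a filter, 2 with the length and GC correction, 1 with total counts (Tfrc, lower, and not Tfr2) and 6, all lower, with hepatocyte scaling. Iron list genes called were 3 as reported, 15 with total counts, 15 with DESeq2, 9 without a filter, 10 with the length and GC correction and 65 with hepatocyte scaling. The median over all genes shifted to -0.39 with total counts and to -1.03 with hepatocyte scaling, which moves genes below 0 by construction. The cause of the other changes was not tested.

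Log2 fold changes whose sign turned with hepatocyte scaling were Tfr2 -0.11, Fth1 -1.07, Ftl1 -0.95, Bmp6 -0.96, Trf -0.073, Hfe2 -0.62, Acvr2b -0.39, Tmprss6 -0.28, Fgl1 -0.51, Atoh8 -0.71, Socs3 -0.23, Hp -0.54, Hpx -0.40, Lrp1 -0.75, Aco1 -0.64, Fdx1 -0.13, Fdxr -0.23, Bola3 -0.45, Alad -0.13, Urod -0.28, Ppox -0.55 and Blvrb -0.85. With total counts they were Fth1 -0.39, Ftl1 -0.31, Bmp6 -0.32, Hfe2 -0.017, Atoh8 -0.076, Lrp1 -0.11, Aco1 -0.0090 and Blvrb -0.15, and with the length and GC correction Fth1 -0.29, Ftl1 -0.24 and Blvrb -0.084. Fth1 was at -0.0066 with upper-quartile scaling and at -0.0071 without a filter. With 1 liver left out, Fth1 ranged from -0.31 to 0.16 (-0.0038 without sgCtrl 7.2), Ftl1 from -0.083 to 0.19 (-0.0090 without sgCtrl 7.1), Bmp6 from -0.034 to 0.19 (-0.027 without sgPrdx2 1.1), Id1 from -0.40 to 0.056 and Blvrb from -0.098 to 0.49. Tfr2 with total counts was at 0.50 (edgeR adjusted p = 0.0529). Over all settings other than leaving out a liver, 238 of 320 values of named genes were counted as unchanged. For genes other than Hamp2 this means the same sign and the same side of the threshold. Hamp2 has no test, so for it this means the same sign and a shift under its larger within-group SD of log2 CPM.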

Other observations

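Genes of the red cell lineage differed among themselves. Klf1, a transcription factor of erythroid cells named here after its values were seen, was at 1.48, 1.36 and 1.73 CPM in sgCtrl and at 4.92, 3.83 and 5.31 CPM in sgPrdx2 livers and rose 3.06-fold (log2 1.61, SE 0.21, edgeR adjusted p = 0.0313). Without sgCtrl 5.1 (edgeR adjusted p = 0.118) or 7.2 (0.143), or sgPrdx2 1.1 (0.142) or 1.3 (0.0672), the call was lost. Alas2, the erythroid enzyme that starts heme synthesis, was at 41.2, 87.8 and 48.7 CPM in sgCtrl and at 120, 101 and 134 CPM in sgPrdx2 livers, without overlap and without a call (log2 0.997, SE 0.28, edgeR adjusted p = 0.0872). It was called without sgCtrl 7.1 (edgeR adjusted p = 0.0318). The globin genes Hbb-bs, Hbb-bt, Hba-a1 and Hba-a2 had log2 fold changes of -0.25, -0.46, -0.33 and -0.22 and were not called. The groups of Hbb-bt and Hba-a1 did not overlap, with lower values in sgPrdx2. Of all genes tested, 17.5% were lower without overlap in this way, and 16.7% were higher without overlap, as Alas2 was. All 4 globin genes were called lower with total counts, with the length and GC correction and scaled to the hepatocyte markers. Over all genes tested, 3041 of 17032, 549 of 16572 and 12474 of 17032 were called lower in these settings. RLE, upper-quartile scaling and DESeq2 did not call the globin genes. The summed level of the 9 erythroid markers in the table was 159 to 203 CPM in sgCtrl and 194 to 264 CPM in sgPrdx2 livers and overlapped. Within this sum the means of Alas2 and Klf1 were higher and those of the 4 globin genes lower in sgPrdx2 livers.

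Liver sgCtrl 5.1 and liver sgPrdx2 3.2, of different groups, shared high values of several iron and heme genes, a pattern picked out after seeing the values. Fth1 was at 3343 and 3966 CPM in these 2 livers and at 2239 to 2761 CPM in the other 4. Alas1, the rate-limiting enzyme of heme synthesis in hepatocytes, was at 771 and 1216 CPM in them and at 225 to 364 CPM in the others. Blvrb, biliverdin reductase B, was at 297 and 391 CPM in them and at 177 to 224 CPM in the others.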
